A study of Mus musculus with 14 samples.

Results

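Of the 23284 gene entries in each of the 2 deposited expression tables, 10 chemokine genes were followed: Cxcl1, Cxcl2, Cxcl3, Cxcl5, Ppbp, Cxcl10, Ccl2, Ccl7, Ccl17 and Ccl20. Each was found by its symbol in both tables. The genes were chosen by name with measured values in view, and Cxcl3, Ccl17 and Ppbp were selected on their large changes in these same libraries, so the values of these 3 genes are a description and were not tested. Chemokines are small secreted proteins that guide leukocytes along gradients by binding G-protein-coupled receptors on the migrating cells. Cxcl1, Cxcl2, Cxcl3, Cxcl5 and Ppbp bind the receptor Cxcr2 and attract neutrophils. Cxcl10 binds Cxcr3 on activated T cells and is induced by interferon, Ccl2 and Ccl7 attract monocytes through Ccr2, Ccl17 attracts T cells through Ccr4, and Ccl20 attracts lymphocytes and dendritic cells through Ccr6. Epithelial cells can make several of these ligands, and transcription of many of them is driven by NF-kB.

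The 14 RNA-seq libraries came from EpH4, a mouse mammary gland epithelial line, and EpRas, its derivative transformed with H-RasG12V. Without transfection, 2 libraries were made for each of 4 groups: untreated EpH4, EpH4 with 1 ng/ml TGF-β, untreated EpRas and EpRas with 1 ng/ml TGF-β, all collected at 48 h. In EpRas alone, 6 further libraries compared a negative control siRNA (siNC) with 2 pairs of siRNAs against the ETS-family transcription factors Etv4 and Etv5, pair 1 (siEtv4_1 with siEtv5_1) and pair 2 (siEtv4_2 with siEtv5_2), each with and without TGF-β and with 1 library per condition. EpH4 was grown in a medium with more serum than EpRas, so the medium and the transformation cannot be told apart in any comparison of the lines. Each line is a single established line. The authors describe 2 biological replicates, but the labels do not say whether these were separate cultures, so p-values measure the spread between these libraries only. The transfected and untransfected samples were normalised separately.

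Values are in FPKM, a read density scaled to the length of the transcript and to the size of the library, so that levels can be compared between genes. Apart from Ccl7, which was given no reads, and Ccl20 in the siRNA table, whose step was taken from the other table, the FPKM of the chemokines were whole multiples of the worth of 1 read, between 0.0532 and 0.894 FPKM depending on gene and library, which gave the number of reads behind each value. The relative depth of the untransfected libraries ranged from 0.609 to 1.36 of the first untreated EpH4 library. In these bulk samples, fewer cells of a type and less RNA per cell cannot be told apart. Of the 6 epithelial markers, summed levels were between 1577 and 3838 FPKM in the untransfected libraries. Of 8 leukocyte markers found, Ptprc, Itgam, Emr1 and Ms4a1 were among those listed at 0 in each of these libraries, while the summed level of the list was between 1.81 and 8.49 FPKM, mostly from Cd68 (0.293 to 7.13 FPKM) and Csf1r (0.103 to 6.23). The summed level of the 5 platelet markers was between 0.717 and 2.96 FPKM, with Pf4 listed at 0 in each, where Ppbp itself was between 2.03 and 10.9 FPKM. The part of platelet RNA in the level of Ppbp was not tested. Krt8 and Krt18 made up most of the epithelial sum, while other epithelial markers differed between the lines. With TGF-β, Krt14 was 851 and 784 FPKM in EpH4 against 62.2 and 64.6 in EpRas. Cdh1 was 93.7 and 85.0 against 20.6 and 18.2, and Epcam was 531 and 534 against 64.9 and 149. The part of these markers in the chemokine differences was not tested.

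The CXC members sit in a single cluster on chromosome 5 of the mm10 mouse genome, apart from Cxcl10. In the order of the chromosome these are Cxcl5 (chr5:90759299-90761625), Ppbp (chr5:90768518-90770060), Cxcl3 (chr5:90786103-90788090), Cxcl1 (chr5:90891245-90893115) and Cxcl2 (chr5:90903899-90905938). Pf4 and Cxcl15, which lie inside the cluster, were listed at 0 in the untransfected libraries. Cxcl10 lies in a locus of chromosome 5 that the deposited table shares between Cxcl10, Cxcl11 and Art3 (chr5:92331841-92414627), of which Art3 was listed at 0 in the untransfected libraries. Ccl2 and Ccl7 are neighbours on chromosome 11, Ccl17 lies beside Cx3cl1 on chromosome 8, and Ccl20 is on chromosome 1. Cxcl1, Cxcl2 and Cxcl3 are close relatives, and how reads that match more than 1 of them were divided was not examined.

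The 250 bases before the annotated start were found for 7 of the 10 genes in RefSeq promoters (GRCm38.p6). They are shown for 3 genes of the cluster that share an NF-kB motif, for Ppbp, which lies in the same cluster and lacks those letters, and for Ccl17, whose level in EpH4 was higher with TGF-β. Capitals mark the NF-kB letters GGAATTTCC, searched on both strands. All 5 are on the plus strand and are written 5′ to 3′. The windows are chr5:90890995-90891244 for Cxcl1, chr5:90903649-90903898 for Cxcl2, chr5:90785851-90786100 for Cxcl3, chr5:90768268-90768517 for Ppbp and chr8:94810203-94810452 for Ccl17.
Cxcl1: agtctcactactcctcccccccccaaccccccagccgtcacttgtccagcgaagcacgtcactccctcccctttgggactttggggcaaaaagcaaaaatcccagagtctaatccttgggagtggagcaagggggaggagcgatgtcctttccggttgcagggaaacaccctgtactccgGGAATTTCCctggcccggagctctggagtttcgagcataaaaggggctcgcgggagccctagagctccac
Cxcl2: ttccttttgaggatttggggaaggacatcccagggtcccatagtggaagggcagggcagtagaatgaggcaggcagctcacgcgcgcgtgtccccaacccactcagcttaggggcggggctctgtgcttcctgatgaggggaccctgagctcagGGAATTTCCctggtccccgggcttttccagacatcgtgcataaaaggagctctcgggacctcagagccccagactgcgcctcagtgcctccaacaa
Cxcl3: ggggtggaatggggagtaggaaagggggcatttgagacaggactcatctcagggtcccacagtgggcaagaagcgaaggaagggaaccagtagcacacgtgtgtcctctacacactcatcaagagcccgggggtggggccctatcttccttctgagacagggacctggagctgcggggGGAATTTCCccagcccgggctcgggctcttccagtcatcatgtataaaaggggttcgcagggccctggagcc
Ppbp: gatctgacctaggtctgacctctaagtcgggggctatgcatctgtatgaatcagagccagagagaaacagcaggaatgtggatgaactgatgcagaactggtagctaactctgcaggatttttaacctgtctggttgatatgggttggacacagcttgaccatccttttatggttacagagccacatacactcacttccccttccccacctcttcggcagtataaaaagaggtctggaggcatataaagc
Ccl17: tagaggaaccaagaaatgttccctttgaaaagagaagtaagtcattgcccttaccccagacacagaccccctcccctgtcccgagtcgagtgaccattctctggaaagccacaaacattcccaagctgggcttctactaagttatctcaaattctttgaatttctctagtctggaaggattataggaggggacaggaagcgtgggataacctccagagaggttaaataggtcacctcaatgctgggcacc

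These letters stood at positions -70 to -62 in Cxcl1, -96 to -88 in Cxcl2 and -72 to -64 in Cxcl3, counting back from the start, and on the minus strand at -158 to -150 in Cxcl10. They were present in 79 of 27025 upstream windows of the same length (0.292%). The ETS letters CCGGAAGT, held by 2.93% of windows, were in none of the 7, while the shorter ETS letters GGAAGT, held by 19.99% of windows and contained in the longer form, were in the windows of Ppbp, Cxcl10 and Ccl20. The AP-1 letters TGANTCA (6.87% of windows) were in the windows of Ppbp and Cxcl10. The interferon-response letters GAAANNGAA (7.16% of windows) were in that of Cxcl10. All motifs were searched on both strands, and a match is a description of the letters, not of binding.

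In untransfected cells the neutrophil-attracting members of the cluster were highest in untreated EpH4 and lower in each of the other 3 groups. Cxcl5 fell with TGF-β in both lines and was lower in EpRas than in EpH4 under both conditions, while Cxcl10 was lower in EpRas than in EpH4 with and without TGF-β. Ccl17 went against the cluster, being near 0 in untreated EpH4 and highest in EpH4 with TGF-β. Differences are given on the log2(FPKM + 1) scale, which understates the change of low genes, and were tested with limma over 9100 genes, those whose maximum in the untransfected table was 5 FPKM or more. A call is a Benjamini-Hochberg adjusted p under 0.05. Of the 10 chemokines, 6 passed this filter, the lowest of them being Cxcl10 at a maximum of 6.30 FPKM. Cxcl2, at a maximum of 3.70 FPKM, fell just outside it with Ccl2, Ccl7 and Ccl20.

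Setting Cxcl3, Ccl17 and Ppbp aside left Cxcl1, Cxcl5 and Cxcl10 as the genes with a test. In untreated EpRas against untreated EpH4, 3 of these 3 were called, all lower in EpRas, where 17.6% of all genes tested were called in either direction. With TGF-β in both lines, 2 of 3 were called, again lower in EpRas, against 21.3% of all genes. For TGF-β in EpH4, 1 of 3 was called (Cxcl5, lower with TGF-β) against 9.40% of all genes, and for TGF-β in EpRas, 1 of 3 was called (Cxcl5, lower with TGF-β) against 3.82%. The difference between the TGF-β effects of the 2 lines was called by limma for 0 of 3, against 0.802% of all genes, although 2 of the 3 had an unadjusted p under 0.05 (Cxcl5 and Cxcl10). Cxcl1 reached the filter only through untreated EpH4 and Cxcl10 only through EpH4 with TGF-β, so both were admitted by a group where they are high and the counts lower in EpRas are a description. With only 3 genes and a choice made with results known, these counts say nothing of chemokines as a class. The comparison of the untreated lines and that of TGF-β in EpH4 share the untreated EpH4 libraries.

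**Figure D1:**
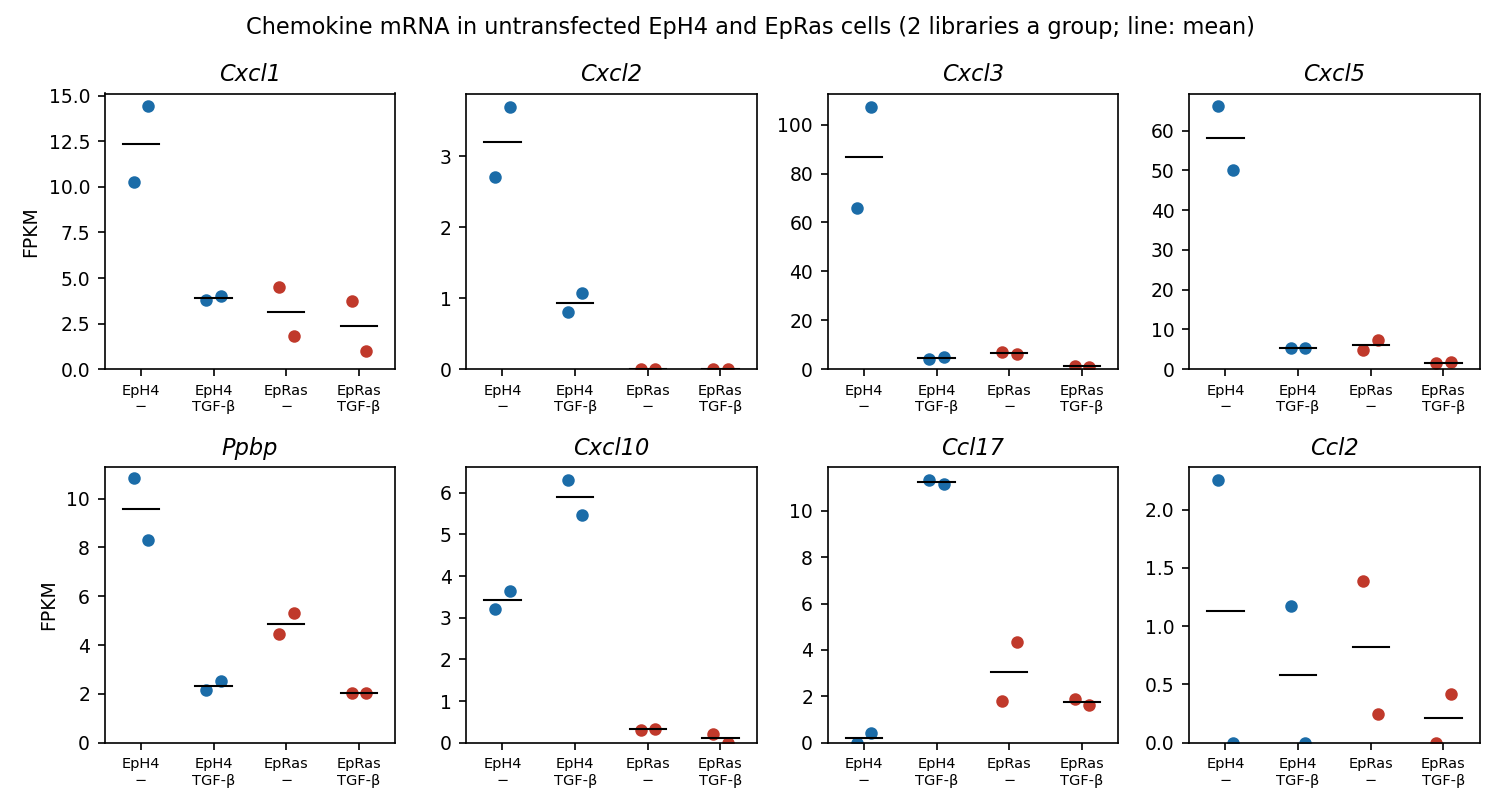
FPKM of 8 chemokines (vertical axes, starting at 0, each with its own scale) in untreated and TGF-β-treated EpH4 (blue) and EpRas (red), where points are the 2 libraries of a group and the line is their mean. The 2 untreated EpH4 libraries are the highest for Cxcl1, Cxcl2, Cxcl3, Cxcl5 and Ppbp, whereas Cxcl10 and Ccl17 are highest in EpH4 with TGF-β.

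Cxcl3 had the highest level of any of the chemokines followed in these 8 libraries. It was 65.9 and 107 FPKM in the 2 untreated EpH4 libraries, 4.36 and 4.89 in EpH4 with TGF-β, 7.23 and 6.29 in untreated EpRas, and 1.47 and 0.944 in EpRas with TGF-β. No 2 of the 4 groups overlapped, and the order ran from untreated EpH4 through untreated EpRas and EpH4 with TGF-β down to EpRas with TGF-β. The mean of 86.6 ± 29.3 FPKM (SD, n = 2) in untreated EpH4 was 18.7-fold above that of EpH4 with TGF-β and 12.8-fold above that of untreated EpRas, from 1008, 40 and 55 reads. In EpRas the mean was 6.76 ± 0.663 FPKM untreated and 1.21 ± 0.370 with TGF-β (SD, n = 2), a 5.61-fold difference, from 55 and 9 reads. The log2 difference with TGF-β was -3.92 ± 0.25 (SE) in EpH4 and -1.82 ± 0.25 in EpRas.

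Cxcl5, another ligand of Cxcr2, lies 26.8 kb from Cxcl3 and had the next highest level. It was 66.1 and 50.0 FPKM in untreated EpH4, 5.36 and 5.24 in EpH4 with TGF-β, 4.81 and 7.24 in untreated EpRas, and 1.502 and 1.756 in EpRas with TGF-β. Untreated EpH4 stood above all other libraries and EpRas with TGF-β below them, whereas EpH4 with TGF-β and untreated EpRas overlapped. Cxcl5 fell by 3.22 ± 0.22 (SE) on the log2 scale with TGF-β in EpH4 (limma adjusted p = 0.000242), which was a 10.96-fold difference of mean FPKM from 1143 and 81 reads. In EpRas it fell by 1.40 ± 0.22 with TGF-β (limma adjusted p = 0.0153), a 3.70-fold difference. This call in EpRas was lost when untreated EpRas replicate 2 was left out (limma adjusted p = 0.0954) or EpRas TGF-β replicate 1 was left out (0.0785), and was also lost with a pseudocount of 5 FPKM (0.0725) or with only these 2 groups in the fit (0.128), over a range of 0.0104 to 0.128. Between the untreated lines, Cxcl5 was 9.64-fold lower in EpRas (log2 difference -3.08 ± 0.22, limma adjusted p = 0.000148), and with TGF-β it was 3.25-fold lower (-1.26 ± 0.22, limma adjusted p = 0.00615). The latter call was lost without EpH4 TGF-β replicate 1 (limma adjusted p = 0.055, over a range of 0.00432 to 0.055). The TGF-β effect was smaller in EpRas than in EpH4 by 1.82 ± 0.31 on the log2 scale, which missed the threshold (limma adjusted p = 0.0545). This difference was called with a pseudocount of 5 FPKM.

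Ppbp encodes the precursor of a platelet-stored neutrophil attractant and lies between Cxcl5 and Cxcl3. It was 10.9 and 8.29 FPKM in untreated EpH4, 2.15 and 2.53 in EpH4 with TGF-β, 4.45 and 5.30 in untreated EpRas, and 2.03 and 2.03 in EpRas with TGF-β. The groups followed the same order as those of Cxcl3 and did not overlap, although EpH4 and EpRas with TGF-β were separated by less than the worth of 1 read. The mean was 4.09-fold lower with TGF-β in EpH4 (114 and 22 reads) and 2.40-fold lower with TGF-β in EpRas (45 and 16 reads), with log2 differences of -1.65 ± 0.18 (SE) and -0.95 ± 0.18. Between the untreated lines it was 1.96-fold lower in EpRas.

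Cxcl1 encodes the mouse counterpart of the growth-regulated oncogene family of neutrophil attractants. It was 10.2 and 14.4 FPKM in untreated EpH4, 3.79 and 4.03 in EpH4 with TGF-β, 4.49 and 1.81 in untreated EpRas, and 3.72 and 1.02 in EpRas with TGF-β. Untreated EpH4 stood above all other libraries, and the 2 EpRas groups overlapped with each other. In untreated EpRas it was 3.92-fold lower than in untreated EpH4 (log2 difference -1.75 ± 0.44 SE, limma adjusted p = 0.0354), from 21 and 131 reads. That call was lost when any 1 of 6 of the 8 libraries was left out (limma adjusted p from 0.0502 to 0.175), all except the 2 EpRas TGF-β libraries, as well as with a pseudocount of 0.1 FPKM (0.0674), without a filter (0.0662) or with only the 2 groups (0.0548), over a range of 0.0206 to 0.175 for all settings. The TGF-β difference was -1.43 ± 0.44 in EpH4 (limma adjusted p = 0.0997) and -0.35 ± 0.44 in EpRas (limma adjusted p = 0.788), and neither passed, though in EpH4 the treated libraries were both below the untreated ones, with a 3.16-fold lower mean. The EpH4 value passed with a pseudocount of 5 FPKM (limma adjusted p = 0.0486) or with only the 2 groups (0.0297), over a range of 0.0297 to 0.373.

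Cxcl2, an inducible neutrophil attractant that neighbours Cxcl1, was 2.70 and 3.70 FPKM in untreated EpH4 and 0.803 and 1.08 in EpH4 with TGF-β, and was listed at 0 in all 4 untransfected EpRas libraries. The 2 EpH4 groups did not overlap. From 40 reads in untreated EpH4 and 0 in untreated EpRas, and taking 3 reads over the group as the most that a count of 0 allows, Cxcl2 was at least 9.86-fold lower in EpRas. The exact 95% interval of this ratio, which also carries the counting error of the 40 reads, begins at 7.66-fold. With TGF-β in both lines, from 9 reads against 0, the value against 3 reads was 2.55-fold and the interval begins at 1.68-fold. Within EpH4, the mean was 3.404-fold lower with TGF-β (40 and 9 reads, 95% interval of the ratio of reads 1.62 to 7.94). All intervals from reads are exact and cover counting error only.

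**Figure D2:**
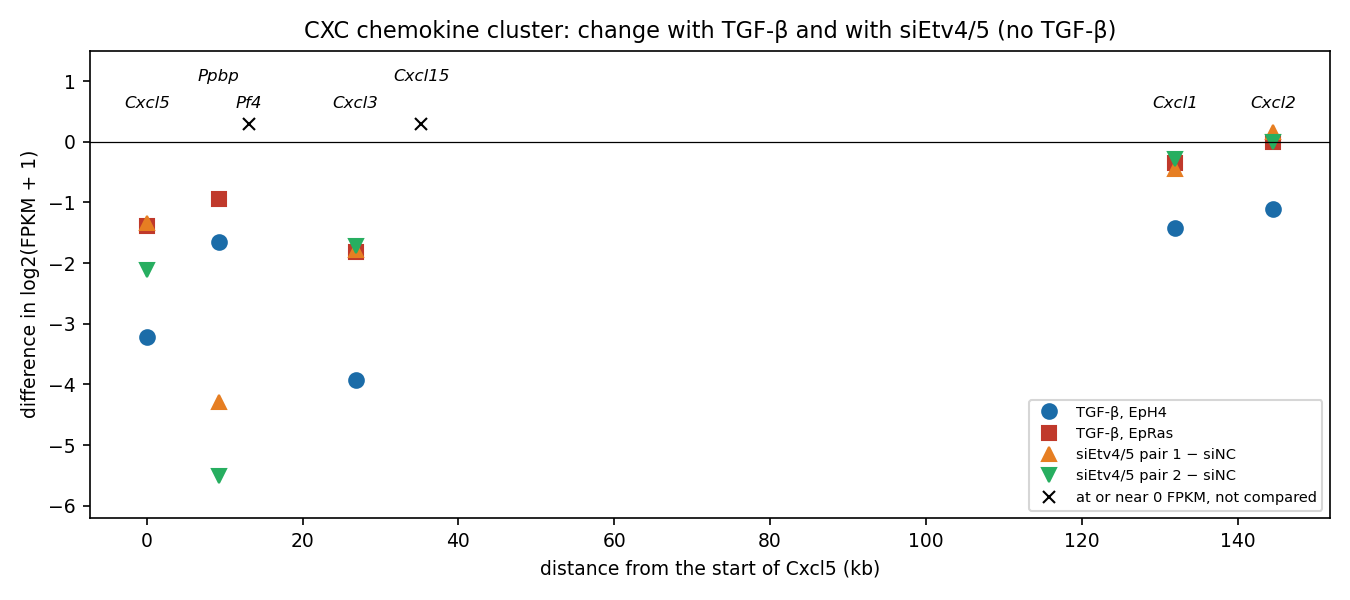
Change of 5 CXC chemokines plotted by distance from the start of Cxcl5 (horizontal axis, kb), with the difference in log2(FPKM + 1) on the vertical axis, for TGF-β in EpH4 (circles), TGF-β in EpRas (squares) and the 2 siRNA pairs against siNC without TGF-β (triangles). TGF-β differences in EpH4 run from -1.11 for Cxcl2 to -3.92 for Cxcl3, while the knockdown differences are largest in size for Ppbp, at -4.29 and -5.51, and crosses mark Pf4 and Cxcl15, which were at or near 0.

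Cxcl10, the interferon-inducible ligand of Cxcr3, was 3.22 and 3.63 FPKM in untreated EpH4, 6.30 and 5.47 in EpH4 with TGF-β, 0.311 and 0.334 in untreated EpRas, and 0.221 and 0 in EpRas with TGF-β. All 4 EpH4 libraries were above all 4 EpRas libraries. Without TGF-β, Cxcl10 was 10.6-fold lower in EpRas (log2 difference -1.74 ± 0.16 SE, limma adjusted p = 0.000575), with 3 reads in EpRas and 43 in EpH4. With TGF-β it was lower by 2.64 ± 0.16 on the log2 scale (limma adjusted p = 5.84e-05), from 1 read and 55. Cxcl10 entered the test only through the 2 EpH4 libraries with TGF-β, at 6.30 and 5.47 FPKM, and both differences were also called without a filter (limma adjusted p = 0.00113 without TGF-β and 0.000233 with it, over ranges of 0.000559 to 0.00834 and 5.84e-05 to 0.00296). TGF-β treatment of EpH4 gave a 1.72-fold higher mean, with treated libraries above untreated ones, which missed the threshold (log2 difference 0.64 ± 0.16, limma adjusted p = 0.0549). This value passed when either EpRas TGF-β library was left out of the shared fit (limma adjusted p = 0.0323 in each case) or no filter was used (0.0445), and ranged up to 0.398 under the other settings. The TGF-β difference in EpRas was -0.26 ± 0.16 (limma adjusted p = 0.517) and rested on 1 to 3 reads a group. The summed fibroblast markers also differed between the lines, at 22.6 to 26.8 FPKM in untreated EpH4 and 12 to 13.5 in untreated EpRas. With TGF-β they were 221.6 to 247.2 in EpH4 and 8.42 to 11.1 in EpRas. Most of the EpH4 sums came from Col1a1, at 18.67 and 21.25 FPKM untreated and 223.5 and 200 with TGF-β. Without TGF-β, Pdgfrb went the other way, at 0.915 and 0.988 FPKM in EpH4 and 7.14 and 8.11 in EpRas. Pdgfra also did, at 0.668 and 0.986 in EpH4 and 2.33 and 3.16 in EpRas. With TGF-β, Pdgfra was 2.266 and 2.067 in EpH4 and 2.898 and 2.565 in EpRas. The part of these markers in the line differences of Cxcl5, Cxcl10 and the interferon regulators was not tested.

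Of the 6 interferon regulators listed, 5 were lower in EpRas than in EpH4 with TGF-β and 2 without, and 3 rose with TGF-β in EpH4, where 21.3%, 17.6% and 9.40% of all genes tested were called in either direction. The median log2 difference of the 6 with TGF-β was -1.16, where that of all genes was -0.01. Irf7, a transcription factor of the interferon response, was 1.20 and 1.36 FPKM in untreated EpH4 and 6.79 and 6.90 in EpH4 with TGF-β, and it rose by 1.78 ± 0.27 on the log2 scale (limma adjusted p = 0.00821). Irf1 rose by 0.65 ± 0.15 (limma adjusted p = 0.0383) and Irf9, which carries interferon signals to the nucleus, by 0.91 ± 0.22 (limma adjusted p = 0.0422). Between the lines with TGF-β, Irf1 was lower in EpRas (log2 difference -1.29 ± 0.15, limma adjusted p = 0.00105), as were Irf7 (-1.74 ± 0.27, limma adjusted p = 0.0044) and Stat2 (-0.9985 ± 0.16, limma adjusted p = 0.00459). Irf1 was also lower in EpRas without TGF-β (-0.88 ± 0.15, limma adjusted p = 0.00761). Irf7, Irf9 and Stat2 reached the 5 FPKM filter only in EpH4 with TGF-β, so these 3 were admitted by the group where they are high and their differences and places in the counts are a description. Whether these genes have a part in the level of Cxcl10 was not tested.

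Ccl17, which draws T cells bearing Ccr4, was 0 and 0.402 FPKM in untreated EpH4, 11.3 and 11.2 in EpH4 with TGF-β, 1.79 and 4.33 in untreated EpRas, and 1.90 and 1.63 in EpRas with TGF-β. EpH4 with TGF-β stood above and untreated EpH4 below all other libraries, and the 2 EpRas groups overlapped. In EpH4 the group held 1 read untreated and 37 with TGF-β, a ratio of reads per depth of 48.6 with a 95% interval of 8.19 to 1969. The log2 difference with TGF-β was 3.37 ± 0.31 (SE) in EpH4 and -0.48 ± 0.31 in EpRas. Between the lines the direction turned with treatment, as Ccl17 was higher in EpRas without TGF-β (log2 difference 1.70 ± 0.31) and lower with it (-2.15 ± 0.31). The sizes of these values depend on the pseudocount, and with 0.1 FPKM in place of 1 the difference in EpH4 was 5.66, whereas with 5 it was 1.64. The summed level of the 6 fibroblast markers moved with Ccl17 in EpH4, from 22.6 to 26.8 FPKM untreated to 221.6 to 247.2 with TGF-β, with Thy1 and Dpt at 0 throughout. Most of this sum was Col1a1, at 18.67 and 21.25 FPKM untreated and 223.5 and 200 with TGF-β. The summed leukocyte markers were 1.81 to 2.09 FPKM in untreated EpH4 and 6.52 to 8.49 with TGF-β, through Csf1r, which was 0.185 and 0.103 untreated and 6.23 and 5.74 with TGF-β, while Ptprc and Itgam were at 0. The part of either list in the result was not tested.

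Cx3cl1, a membrane-bound chemokine whose gene lies next to Ccl17 on chromosome 8 (chr8:94772180-94782426), was not among the chemokines followed and was tested. It belongs to a list of further chemokines that was also chosen with earlier results of these data known. It was 12.8 and 9.18 FPKM in untreated EpH4, 50.3 and 49.9 in EpH4 with TGF-β, 33.1 and 28.6 in untreated EpRas, and 20.4 and 23.1 in EpRas with TGF-β. The 4 groups did not overlap, and their order was that of the Ccl17 group means, with EpH4 with TGF-β highest and untreated EpH4 lowest. Cx3cl1 rose by 2.11 ± 0.19 on the log2 scale with TGF-β in EpH4 (limma adjusted p = 0.000756), and its TGF-β effect was lower in EpRas than in EpH4 by 2.59 ± 0.27 (limma adjusted p = 0.00854). Between the lines it was higher in EpRas without TGF-β by 1.42 ± 0.19 (limma adjusted p = 0.00286) and lower in EpRas with TGF-β by 1.17 ± 0.19 (limma adjusted p = 0.00478). Ccl22, also beside Ccl17, was listed at 0 in every library.

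**Figure D3:**
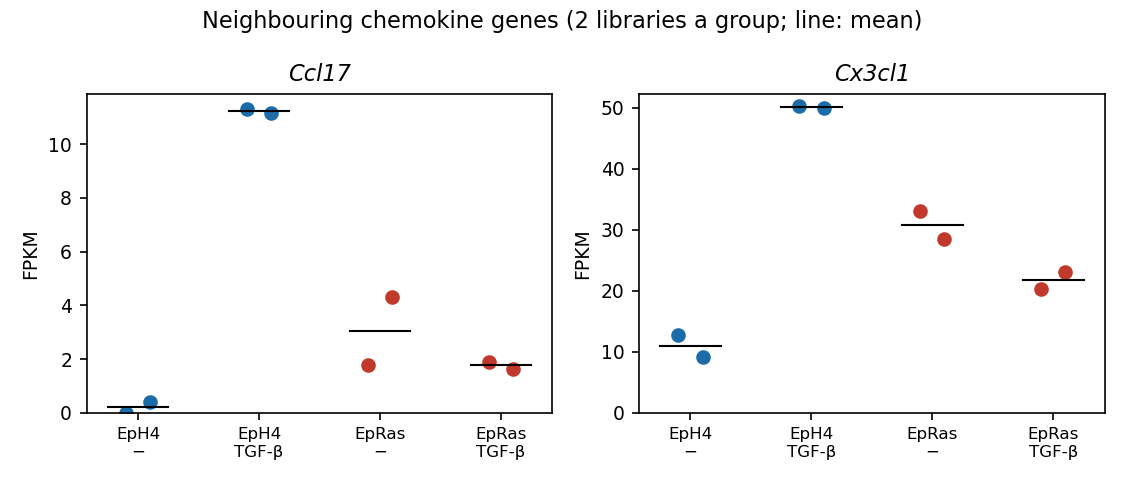
FPKM of the neighbouring genes Ccl17 and Cx3cl1 (vertical axes, starting at 0) in the 4 untransfected groups, with points for the 2 libraries and a line at their mean. Both genes are highest in EpH4 with TGF-β (11.2 and 50.1 FPKM on average) and lowest in untreated EpH4 (0.201 and 10.98 FPKM).

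The remaining CC members were close to the limit of detection in untransfected cells. Ccl2 was 2.25 and 0 FPKM in untreated EpH4, 1.17 and 0 in EpH4 with TGF-β, 1.39 and 0.249 in untreated EpRas, and 0 and 0.422 in EpRas with TGF-β, from 8 reads at most. Its libraries overlapped in every comparison, so no difference was detectable at this depth. Ccl7 was 0.210 FPKM in untreated EpH4 replicate 2 and was listed at 0 elsewhere. Ccl20 was at most 1.18 FPKM, from 3 reads, and was listed at 0 in both EpRas TGF-β libraries.

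Across the 8 untransfected libraries, the gene whose log2(FPKM + 1) followed Cxcl3 most closely among 9099 other genes was Lsm2 (Pearson r = 0.989), followed by Cxcl5 and Enpp2 (both 0.980). For Ppbp the closest were Ablim1 (0.993), Dlk2 (0.976) and Pik3r1 (0.976), and for Ccl17 they were Anxa8 (0.979), Nrp2 (0.961) and Crlf2 (0.958). These coefficients describe 8 libraries that fall into 4 groups. Lsm2, an RNA-processing protein, spanned a far smaller range than Cxcl3, from 84.5 to 152.9 FPKM.

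The siRNA libraries asked how the chemokines respond to loss of Etv4 and Etv5 in EpRas. Etv4 was 57.4 FPKM with siNC, 11.6 with pair 1 and 27.9 with pair 2, and with TGF-β it was 64.3, 12.6 and 18.9. Etv5 was 8.85, 1.61 and 1.26 FPKM without TGF-β and 5.34, 1.24 and 1.20 with it. Both targets were thus lower with both pairs, least so for Etv4 with pair 2 without TGF-β, at 48.5% of siNC. There is 1 library per condition, so no difference has a replicate check and none was tested. A gene is counted as past the fold where log2(FPKM + 1) differed at least 2-fold the same way with both pairs. Of the 10 chemokines, Cxcl3, Cxcl5 and Ppbp reached 5 FPKM in an siRNA library, Cxcl3 only with siNC without TGF-β.

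Without TGF-β, 3 of these 3 chemokines were past the fold downwards, where 2.49% of 9094 genes were. The chemokines had been chosen with earlier results of these libraries known, and both pairs are set against the same siNC library, so the count is a description only. Ppbp, the member with the most pronounced difference, was 104.9 FPKM with siNC, 4.40 with pair 1 and 1.33 with pair 2, from 685, 39 and 11 reads. It was 23.9-fold lower with pair 1 (95% interval 17.3 to 33.9) and 79.2-fold lower with pair 2 (44.0 to 159). In untreated untransfected EpRas, normalised separately, Ppbp was 4.45 and 5.30 FPKM. That is near the pair 1 level and far below that of siNC. Cxcl5 was 43.2 FPKM with siNC, 16.6 with pair 1 and 9.25 with pair 2, which was 2.61-fold (2.23 to 3.06) and 4.68-fold (3.84 to 5.74) lower. Cxcl3 was 10.4, 2.32 and 2.48 FPKM, or 4.50-fold (2.66 to 7.97) and 4.22-fold (2.49 to 7.46) lower. The pairs gave like values for Cxcl3, whose ratio of pair 2 to pair 1 was 1.07 (0.535 to 2.13), but not for Ppbp, which was 3.32-fold (1.67 to 7.19) lower with pair 2 than with pair 1.

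Cxcl1, from the far end of the cluster, was 4.50 FPKM with siNC, 3.05 with pair 1 and 3.54 with pair 2. Its ratios to siNC, 0.677 (0.367 to 1.24) and 0.786 (0.433 to 1.43), were within counting error of 1. Cxcl2 was at most 0.124 FPKM in any siRNA library, which is 1 read, and Ccl7 was listed at 0 in each. Ccl17 was 0.861 FPKM with siNC, 1.90 with pair 1 and 2.71 with pair 2, from 2, 6 and 8 reads, and the intervals of both ratios include 1. Ccl20 was listed at 0 in 4 of the 6 libraries, at 0.182 FPKM in 1, and at 3.15 FPKM from 19 reads with pair 1 without TGF-β. Pair 2 did not show this, with 0 reads. Ccl2 was 1.34, 0.492 and 0.350 FPKM without TGF-β and was listed at 0 in the 3 libraries with TGF-β.

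**Figure D4:**
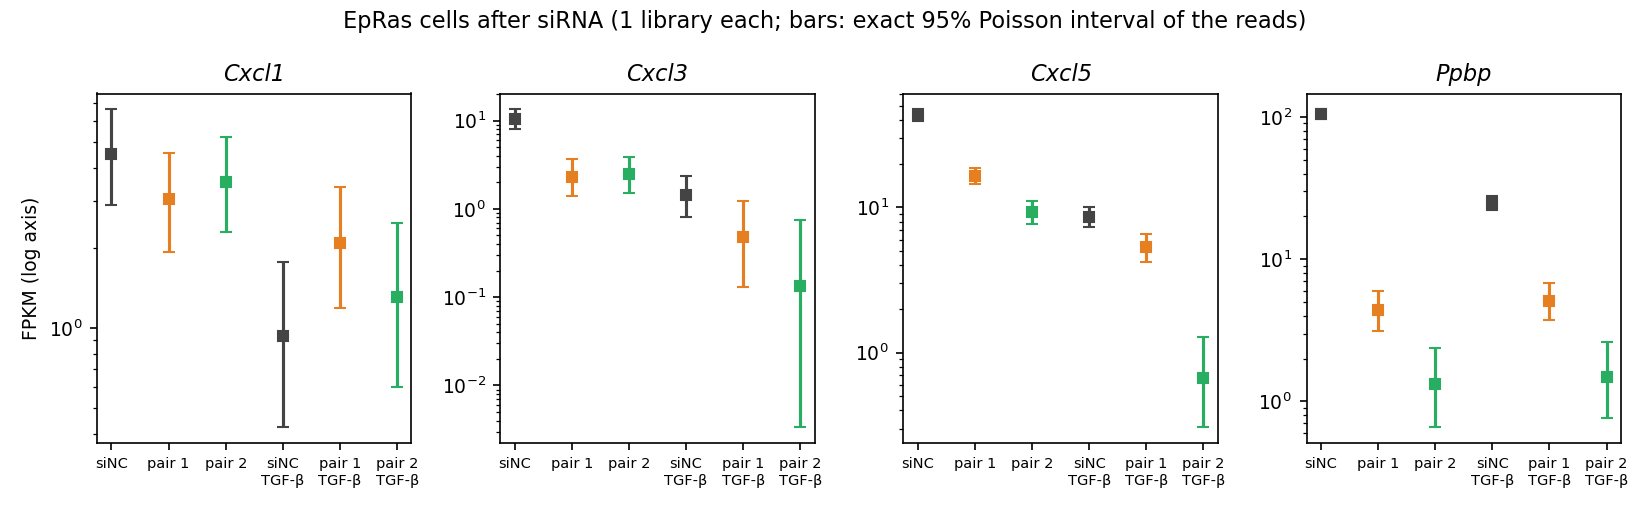
FPKM (vertical log axes, each with its own scale) of 4 chemokines in the 6 EpRas siRNA libraries, 1 library per point, with bars for the exact 95% Poisson interval of the reads behind the value. Ppbp is at 104.9 FPKM with siNC and at 4.40 and 1.33 with the siRNA pairs, whereas the intervals of the 3 Cxcl1 libraries without TGF-β overlap.

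With TGF-β, 1 of the 3 was past the fold downwards, Ppbp, where 2.49% of genes were. This count too is a description only, since Ppbp and Cxcl3 were selected on their large changes in these same libraries. Ppbp was 24.8 FPKM with siNC, 5.11 with pair 1 and 1.49 with pair 2, or 4.86-fold (3.55 to 6.79) and 16.7-fold (9.41 to 32.7) lower. Cxcl5 was 8.62, 5.31 and 0.674 FPKM, which was 1.63-fold (1.23 to 2.16) lower with pair 1 but 12.8-fold (6.57 to 28.5) lower with pair 2. The 2 pairs thus differed 7.87-fold (3.94 to 17.8) for Cxcl5 with TGF-β. Cxcl3 was 1.43, 0.481 and 0.134 FPKM, from 15, 4 and 1 reads. Cxcl1 was 0.931, 2.09 and 1.31 FPKM, and its ratios to siNC, 2.24 (0.934 to 5.76) and 1.41 (0.495 to 4.00), lay above 1 where those without TGF-β lay below it, with all 4 intervals including 1.

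Marker lists of other cell types also differed between siNC and the pairs. The summed fibroblast markers were 5.34 FPKM with siNC, 24.3 with pair 1 and 16.5 with pair 2 without TGF-β, and 11.6, 43.1 and 22.4 with it, with Thy1 and Dpt at 0. The summed platelet markers were 1.98, 1.61 and 0.996 FPKM without TGF-β and 4.50, 3.58 and 1.19 with it, with Pf4 at 0.200 FPKM at most. The fibroblast sum was thus higher and the platelet sum lower with both pairs, though single markers went the other way, as Pdgfra was lower with pair 1 (3.21 to 1.76 FPKM without TGF-β) and Gp1bb was higher with both pairs (0 to 0.923 and 0.692). The summed leukocyte markers were 6.48, 3.31 and 5.002 FPKM without TGF-β and 11.5, 5.10 and 6.99 with it, with Emr1 and Ms4a1 at 0. The summed level of the 4 endothelial markers was 0.585 FPKM with siNC and at most 0.0484 with the pairs without TGF-β, and 2.01 and at most 0.254 with it. The part of these lists in the chemokine differences was not tested.

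With TGF-β against without, FPKM + 1 was at least 2-fold lower in all 3 siRNA conditions for 2 of the 3, Cxcl3 and Cxcl5, where 0.671% of genes were lower in this way. This count is a description only. Cxcl3 was selected on its large changes, and it reached 5 FPKM only with siNC without TGF-β, a library of this comparison. Cxcl5 was 5.02-fold (4.19 to 6.04) lower with siNC, 3.12-fold (2.41 to 4.08) lower with pair 1 and 13.7-fold (7.001 to 30.7) lower with pair 2. Cxcl3 was 7.31-fold (4.11 to 13.8), 4.82-fold (1.60 to 19.5) and 18.5-fold (2.94 to 767) lower. Ppbp was 4.23-fold (3.67 to 4.87) lower with siNC, but its ratio of TGF-β to untreated was 1.16 (0.742 to 1.83) with pair 1 and 1.12 (0.453 to 2.81) with pair 2. Cxcl1 was 4.83-fold (2.18 to 11.8) lower with TGF-β in siNC cells, 1.46-fold (0.738 to 2.96) with pair 1 and 2.70-fold (1.22 to 6.57) with pair 2. In untransfected EpRas, Cxcl3 was 5.61-fold, Cxcl5 3.70-fold, Ppbp 2.40-fold and Cxcl1 1.33-fold lower, the last with overlapping libraries.

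**Figure D5:**
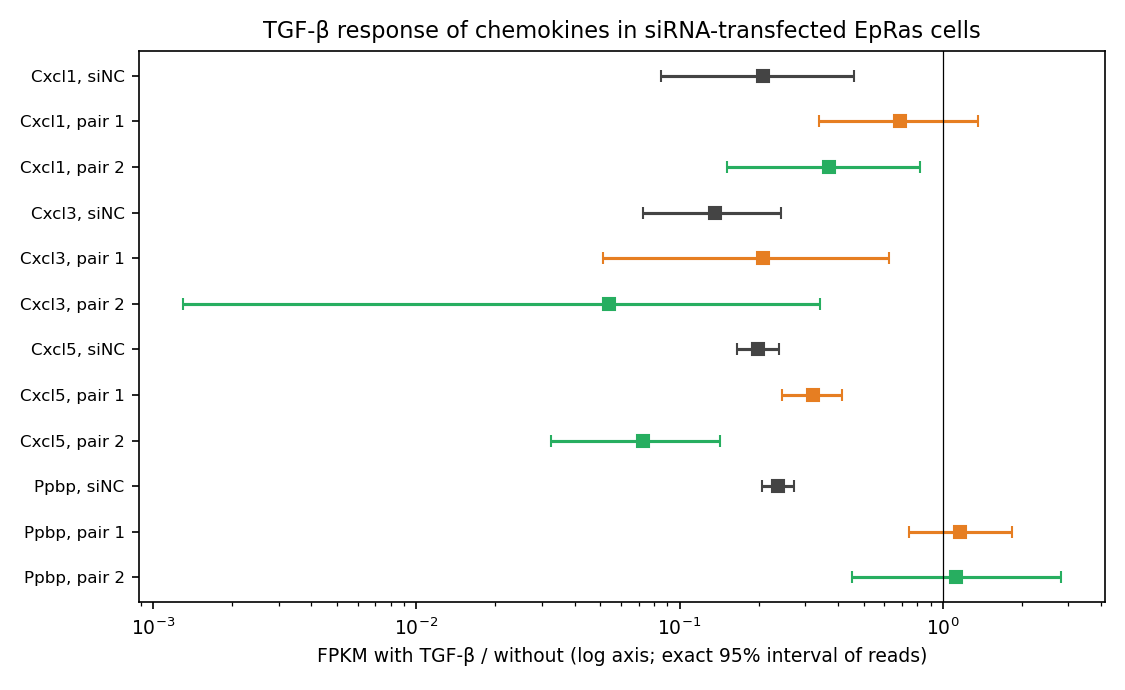
Ratio of FPKM with TGF-β to FPKM without it (horizontal log axis) for 4 chemokines in EpRas cells with siNC, pair 1 or pair 2, with bars for the exact 95% interval from the reads and a vertical line at 1. The Cxcl3 and Cxcl5 intervals all lie below 1, while Ppbp is at 0.237 with siNC and at 1.16 and 1.12 with the pairs, whose intervals include 1.

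The level of Ppbp differed between siNC-transfected and untransfected EpRas cells. It was 104.9 FPKM in untreated siNC cells, against 4.45 and 5.30 in untreated untransfected EpRas, and Cxcl5 was 43.2 FPKM against 4.81 and 7.24. Over the 8681 genes that passed the filter in both tables the median log2 difference between these conditions was 0.05, while that of Ppbp was 4.18, with 10 genes above it, and that of Cxcl5 was 2.68. With TGF-β the values were 3.09 for Ppbp and 1.87 for Cxcl5, against a median of 0.07. For Cxcl3 they were 0.56 and 0.15. The transfected and untransfected samples were normalised separately, and the part of transfection or of normalisation in these differences was not tested.

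Among 31 further chemokine genes, 19 were listed at 0 in every untransfected library and 6 reached the filter. In untreated EpRas against EpH4, 1 of the 6 was higher (Cx3cl1) and 2 were lower, against 17.6% of all genes called, with a median log2 difference of 0.33 where that of all genes was 0.00. Cxcl16, a transmembrane chemokine bound by Cxcr6, was 73.8 and 92.8 FPKM in untreated EpH4 and 20.7 and 21.6 in untreated EpRas, lower by 1.92 ± 0.17 on the log2 scale (limma adjusted p = 0.000446). It was also lower with TGF-β (by 1.37 ± 0.17, limma adjusted p = 0.00159), and it rose with TGF-β in EpRas by 0.84 ± 0.17 (limma adjusted p = 0.0448). Ccl5, which attracts T cells and monocytes, was 7.62 and 16.5 FPKM in untreated EpH4 and 1.37 and 2.54 in untreated EpRas (limma adjusted p = 0.0217), and it reached the filter only in EpH4, the line where it is high. Cxcl12, the ligand of Cxcr4, was higher in EpRas than in EpH4 with TGF-β by 1.09 ± 0.17 (limma adjusted p = 0.00421), at 66.4 and 73.3 FPKM against 30.0 and 34.4.

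Of 23 chemokine receptor genes, 12 were listed at 0 in every untransfected library, Cxcr1, Ccr2, Ccr4, Ccr6 and Cxcr4 among them. Cxcr2, the receptor of the cluster's ligands, was at most 0.0984 FPKM. Only Cxcr7, a scavenging receptor also called Ackr3, reached the filter in the untransfected table. It was 4.44 and 3.91 FPKM in untreated EpH4 and 12.8 and 15.0 in untreated EpRas, higher by 1.52 ± 0.22 on the log2 scale (limma adjusted p = 0.00417), and was also higher with TGF-β (1.20 ± 0.22, limma adjusted p = 0.00814).

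Of 15 NF-kB pathway genes, 14 could be tested. Between the untreated lines 1 was lower in EpRas and none higher, against 17.6% of all genes called. With TGF-β 5 were lower and none higher, against 21.3%, and with TGF-β in EpH4 1 rose, against 9.40%. The single calls are a smaller share of the 14 than of all genes. The median log2 differences in these comparisons were -0.42, -0.31 and 0.22, where those of all genes were 0.00, -0.01 and -0.02. Tnfaip3, an inhibitor and target of NF-kB, was 37.8 and 38.2 FPKM in untreated EpH4 and 12.0 and 13.5 in untreated EpRas (log2 difference -1.51 ± 0.15, limma adjusted p = 0.000649). With TGF-β, Tnfaip3 was again lower in EpRas (-1.52 ± 0.15, limma adjusted p = 0.000428), as were the kinase Ikbke (-1.17 ± 0.19, limma adjusted p = 0.00452) and the inhibitors Nfkbia (-1.14 ± 0.23, limma adjusted p = 0.0114) and Nfkbie (-1.35 ± 0.39, limma adjusted p = 0.0476). Nfkbia, the inhibitor that holds NF-kB in the cytoplasm, rose with TGF-β in EpH4 from 35.0 and 49.3 to 106.0 and 90.8 FPKM (log2 difference 1.22 ± 0.23, limma adjusted p = 0.0175).

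Of 16 upstream cytokine and receptor genes, 10 were tested and 4 rose with TGF-β in EpH4, against 9.40% of all genes called. Il4ra, a receptor subunit for interleukins 4 and 13, rose by 1.01 ± 0.16 (limma adjusted p = 0.0105), and Ifngr1, an interferon gamma receptor chain, rose by 1.00 ± 0.17 (limma adjusted p = 0.0114). Ifngr2, its partner chain, rose by 0.71 ± 0.15 (limma adjusted p = 0.0254) and Il13ra1 by 0.80 ± 0.20 (limma adjusted p = 0.0497). Between the untreated lines 1 was higher in EpRas and 2 were lower, against 17.6% of all genes, namely Ifngr1 (log2 difference 0.64 ± 0.17, limma adjusted p = 0.0377), Ifngr2 (-0.86 ± 0.15, limma adjusted p = 0.00768) and Il17rc (-0.90 ± 0.19, limma adjusted p = 0.0192). With TGF-β, 1 was higher and 5 were lower, against 21.3%. Tslp, an epithelial cytokine, was the higher one (1.75 ± 0.26, limma adjusted p = 0.0037), and the lower ones included Il17rc (-1.36 ± 0.19, limma adjusted p = 0.00273), Ifngr2 (-0.97 ± 0.15, limma adjusted p = 0.0038) and Il13ra1 (-1.16 ± 0.20, limma adjusted p = 0.00611). Il13ra1 reached the filter only in EpH4 with TGF-β and Tslp only in EpRas, so both were admitted by the group where they are high and their values are a description. Tnf was listed at 0 in all 4 untransfected EpRas libraries and was between 0.672 and 1.17 FPKM in those of EpH4.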

How the data were processed

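Directional poly(A) RNA-seq reads from an Ion Proton had been aligned by the authors with TopHat2 2.0.11 and Bowtie2 2.2.2.2 to mm10. The authors deposited FPKM per gene from Cuffdiff of Cufflinks 2.2.0, in 1 table for the 8 untransfected libraries and another for the 6 siRNA libraries.

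The genes and lists were chosen with earlier results of these data known. Genes at 5 FPKM or more in any library of a table and with status OK were kept (9100 and 9094). limma 3.58.1 (R 4.3.3) was fitted to log2(FPKM + 1) of the 8 untransfected libraries with a term for each of the 4 groups, unblocked. Benjamini-Hochberg adjustment was made over the 9100 genes. Listed genes that passed were named, up to 4 per list and comparison by adjusted p, apart from a gene that is not reported here.

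Reads were obtained by dividing FPKM by the largest step that made all libraries whole within 0.02 of a read (slightly more for large numbers). The ratio of the steps between the tables was 1.265 for each of 8 genes. Ccl20 in the siRNA table took its step through this ratio, which left 1 value 0.0451 of a read from whole, and Ccl7 was assigned no reads. Ratios carry Clopper-Pearson and single values Poisson 95% intervals. Python 3.11.15, scipy 1.17.1 and matplotlib 3.10.9 were used.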

Additional observations from a re-analysis of the deposited data

Results flagged for a closer look

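The TGF-β effect on Cx3cl1 differed between the lines in the fit over all genes, with a difference of -2.59 on the log2 scale between EpRas and EpH4 (limma adjusted p = 0.00854), with all treated libraries above the untreated ones in EpH4 and all below them in EpRas.

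Among the chemokine genes that reached 5 FPKM in an siRNA library, 3 differed with TGF-β in one direction with siNC and in the other with both Etv4 and Etv5 siRNA pairs. The difference between the mean log2 TGF-β effect of the pairs and that of siNC was 2.17 for Ppbp, where both pair ratios had intervals that include 1. It was -1.05 for Cx3cl1, at 20.5 and 26.95 FPKM with siNC without and with TGF-β, 18.8 and 10.8 with pair 1, and 25.04 and 16.29 with pair 2. It was 1.33 for Ccl9, which recruits monocytes, whose levels were 0.480 and 0.138 FPKM with siNC, 4.34 and 12.7 with pair 1, and 0.867 and 1.71 with pair 2, and which reached 5 FPKM only in the pair 1 library with TGF-β, where it is highest. Ccl25, which stayed under 5 FPKM, turned in the same way, at 3.05 and 2.13 FPKM with siNC without and with TGF-β, 3.77 and 3.99 with pair 1, and 1.24 and 1.73 with pair 2. For Ccl9 the direction with siNC rests on values close to 0, and the reads behind them were not obtained. These differences were not tested, since each condition has 1 library.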

How the results depend on the processing

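The 3 chemokines with a test and the 3 described without one kept their direction in 452 of 454 values over 16 alternatives. The exceptions were both for Cxcl1 with TGF-β in EpRas, whose log2 difference was 0.14 without untreated EpRas replicate 1 and 0.26 without EpRas TGF-β replicate 2, over a range of -0.96 to 0.26 when 1 library was left out. Many of the 454 values could not have turned. The filter, the estimate of the spread, the block and a fit of only the 2 groups leave a log2 difference unchanged. So does leaving out a library of a group that is not compared. The 3 genes without a test were also selected on large changes. With a mean of at least 10 FPKM, called genes numbered 1 of those left between the lines both without and with TGF-β, because Cxcl1 and Cxcl10 no longer entered. For TGF-β in EpH4, 2 were called with a pseudocount of 5 FPKM, 3 without a filter (Cxcl2, Cxcl5 and Cxcl10, the same 3 that were then called between the lines without and with TGF-β) and 2 with only the 2 groups compared. For TGF-β in EpRas, 0 were called with a pseudocount of 5 FPKM or with only the 2 groups, and 1 was called for the difference between the TGF-β effects with a pseudocount of 5 FPKM (Cxcl5). Leaving out 1 library at a time, the count ranged from 1 to 2 between the lines with TGF-β (1 without EpH4 TGF-β replicate 1), from 1 to 2 for TGF-β in EpH4 (2 without either EpRas TGF-β library), and from 0 to 1 for TGF-β in EpRas (0 without untreated EpRas replicate 2 or EpRas TGF-β replicate 1). In the siRNA libraries with TGF-β, the genes past the fold were 2 with a pseudocount of 0.1 FPKM (Cxcl3 and Ppbp) and 3 at a 1.5-fold threshold, and for TGF-β in all 3 siRNA conditions there was 1 with a pseudocount of 5 FPKM (Cxcl5). The cause of these shifts was not tested, other than the genes that a filter removes.

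Libraries of the same replicate number did not deviate alike, with correlations of same-numbered deviations from -0.347 to 0.078. The lowest were -0.347 between the 2 EpRas groups and -0.259 between the untreated lines. There, libraries of opposite number deviated alike to that extent, which a block by number does not take in. With the replicate number as a block the calls numbered 3, 2, 1, 1 and 0 in the order of the report, as without it.

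Depth limited the low genes, and in the untransfected libraries Cxcl10 in EpRas, Ccl17 in untreated EpH4, Ccl2 and Ccl20 were among those that rested on under 10 reads a group.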
